A study of Mus musculus with 12 samples.

Results

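The sarcomere and Z-disc genes are 36 genes, most of which code for proteins of the contractile unit of heart muscle or of its anchoring plates. Some act elsewhere in the muscle cell. The list was made with earlier results of these data known. Its genes were matched by name to the array's platform annotation whatever their values, and 33 of the 36 are among the 19057 genes named there. They were followed in hearts and kidneys of knockout mice, which lack 1 gene, and wildtype mice, all 12 months old and on a C57BL/6 background, with RNA from whole organs read on Illumina bead arrays. The 12 arrays fall into knockout hearts (KO/HT), wildtype hearts (WT/HT), knockout kidneys (KO/KID) and wildtype kidneys (WT/KID), with 3 arrays each. The knockout is carried by every cell, through a deletion that takes in the coding region and some of the promoter. The study asked which genes differ with the knockout in the heart, and used the kidney as the organ to compare it with. The study's methods take all hearts and kidneys from 3 mice of each genotype, which the sex transcripts given below do not bear out. Each group holds 3 arrays, so p-values rest on the spread between 3 animals per group at most, pooled over all groups of both organs.

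The sarcomere slides thin actin filaments past thick myosin filaments. Calcium binding to the troponin complex shifts tropomyosin on the thin filament and opens it to myosin, titin runs as an elastic spring along the thick filament, the M-band ties thick filaments together in the middle, and the Z-disc anchors thin filaments at each end. Cardiac muscle cells hold most of these proteins at high levels, while kidney has no striated muscle, and its smooth muscle, mesangial and epithelial cells use other actins, α-actinins and tropomyosin forms.

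Of the 36 genes, 33 had a probe under their old or current name and 30 had a probe detected on at least 1 array (detection p-value under 0.01). Tnnt2 (cardiac troponin T), Xirp1 and Smpx had no probe under their names, and Tnni1 (slow skeletal troponin I), Nebl and Nexn had probes that were detected on no array, so for these 6 no level is given. The 30 genes had 56 detected probes of 73. Each gene is given the level of its brightest detected probe, as log2 of the signal after quantile normalization, a scale on which 1 unit is a doubling. By these probes all 30 were detected in all 6 hearts. For 19 of them the probe was detected in no kidney. These 19 probes passed the filter on low signals through the hearts alone and had to differ between the organs. A dimmer probe of 1 of the 19 genes, Pdlim5, was detected in all kidneys.

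The organ labels were checked on the arrays before the comparisons, and the knockout was not. The organs matched their labels: the 6 proximal tubule genes summed to a signal of 112000 to 114000 in KO/KID and 110000 to 112000 in WT/KID, against 567 to 714 in KO/HT and 535 to 758 in WT/HT. Each array detected between 14281 and 16080 probes, and arrays of a group correlated at r = 0.986 to 0.992 in KO/HT and at 0.993 to 0.996 in the other groups. KO/HT replicate 3 held the highest signal of the 6 hearts for 22.6% of all probes and the lowest for 23.4%, more than any other heart. Xist, the transcript that coats the inactive X chromosome, was detected in 5 hearts and in no kidney, and the Y-linked Eif2s3y was detected in KO/HT replicate 1 and in all 6 kidneys. The 5 hearts with Xist and the 6 kidneys without it therefore cannot come from the same animals, so that organ and sex cannot be told apart in wildtypes, and in knockouts only KO/HT replicate 1 carries the same sex transcript as the kidneys.

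The promoters of 5 members are shown as examples and do not stand for the rest. They include Actc1, with one of the largest differences between organs, and Mybpc3 and Fhl2, picked for boxes of muscle factors. The others are Trim63, with one of the smaller differences, and Tpm1, the single member that was higher in kidneys. Each run holds the 250 bases before and the 50 bases after an annotated transcript start, 5′ to 3′ on the strand of the gene, from RefSeq on GRCm38.p6. The windows lie at chr2:114052826-114053125 (minus strand), chr2:91117894-91118193 (plus), chr1:43196712-43197011 (minus, the second of its 2 windows), chr4:134314870-134315169 (plus) and chr9:67049164-67049463 (minus, the only window listed). Capitals mark a TATA box (TATAAA), an MEF2 box (bound by MEF2 factors), a CArG box (bound by serum response factor) or an M-CAT box (CATTCC, bound by TEAD factors) on either strand.
Actc1: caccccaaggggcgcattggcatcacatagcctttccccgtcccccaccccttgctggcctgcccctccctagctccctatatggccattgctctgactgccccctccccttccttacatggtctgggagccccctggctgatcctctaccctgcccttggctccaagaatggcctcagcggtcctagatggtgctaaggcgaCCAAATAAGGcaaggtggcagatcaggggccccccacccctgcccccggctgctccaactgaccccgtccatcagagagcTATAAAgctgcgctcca
Mybpc3: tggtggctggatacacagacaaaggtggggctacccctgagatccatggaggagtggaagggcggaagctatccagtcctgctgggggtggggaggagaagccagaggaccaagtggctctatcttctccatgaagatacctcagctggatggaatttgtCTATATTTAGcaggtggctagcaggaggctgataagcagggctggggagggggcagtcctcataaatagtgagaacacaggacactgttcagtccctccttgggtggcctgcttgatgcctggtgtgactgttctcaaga
Fhl2: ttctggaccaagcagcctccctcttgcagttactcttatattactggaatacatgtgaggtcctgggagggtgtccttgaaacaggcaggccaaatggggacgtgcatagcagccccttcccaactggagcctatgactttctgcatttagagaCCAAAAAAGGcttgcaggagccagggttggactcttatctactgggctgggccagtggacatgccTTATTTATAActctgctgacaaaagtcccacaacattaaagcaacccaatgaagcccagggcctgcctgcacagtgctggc
Trim63: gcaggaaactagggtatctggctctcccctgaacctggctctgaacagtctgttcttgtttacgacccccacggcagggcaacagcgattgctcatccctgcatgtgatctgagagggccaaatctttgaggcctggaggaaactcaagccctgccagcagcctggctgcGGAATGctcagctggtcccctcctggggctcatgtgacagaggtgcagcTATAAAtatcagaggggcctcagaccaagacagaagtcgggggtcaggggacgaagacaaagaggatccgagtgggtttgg
Tpm1: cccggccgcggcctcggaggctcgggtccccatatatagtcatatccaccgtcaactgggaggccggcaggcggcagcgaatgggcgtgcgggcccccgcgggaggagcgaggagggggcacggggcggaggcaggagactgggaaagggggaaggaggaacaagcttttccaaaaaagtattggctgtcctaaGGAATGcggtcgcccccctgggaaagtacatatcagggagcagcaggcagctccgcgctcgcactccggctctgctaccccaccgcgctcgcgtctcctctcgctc

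Windows were listed for 32 of the 36 members, 45 in all since 10 members have more than 1. A CArG box lay in 7 of the 45 (15.6%), against 1.63% of 32851 windows of all genes, and an MEF2 box lay in 7 (15.6%), against 3.19%. The M-CAT box was found in 12 member windows (26.7%) and 14.7% of all windows, the TATA box in 8 (17.8%) and 13.6%, and the GATA box (AGATAA) in 7 (15.6%) and 11.2%. The short E box (CANNTG) was in 37 (82.2%) and in 72.3% of all windows. An MEF2 box can overlap a TATA box, as in the Fhl2 window, where both are within 1 run of capitals. The Tpm1 window held an M-CAT box and none of the other 3 boxes in capitals. The window of Tnnc1, a member far higher in hearts, likewise held an M-CAT box and none of the other 3. Windows of Csrp3, Actn2 and Mb, also far higher in hearts, held none of these boxes. Of the 32 members, 15 had a TATA, MEF2 or CArG box. These are matches of letters in short windows, counted with both strands and without a test, and windows of 1 gene can overlap.

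All 30 measured members differed between heart and kidney in both genotypes, 29 higher in hearts and Tpm1 lower. In KO/HT against KO/KID, 34.9% of all 19780 probes were called higher and 30.2% lower (limma, adjusted p under 0.05), and in WT/HT against WT/KID 35.9% were higher and 31.4% lower, so calls are common in both directions and the sizes of the differences are given as well. The median difference over the 30 genes was 5.08 log2 in knockouts and 4.99 in wildtypes, against 0.03 in knockouts and 0.02 in wildtypes for all probes. Of the 11 members whose brightest probe was detected in all 3 arrays of a kidney group, 10 were higher in hearts and 1 lower. These 11 did not pass through the hearts alone, and their medians were 5.32 in knockouts and 5.36 in wildtypes. In whole organs, fewer cells of a type and less RNA per cell cannot be told apart. Folds of genes that no kidney array of a genotype detected are lower bounds, taken against the lowest signal that counted as detected. No background was subtracted here, so folds of genes read just above that signal in kidneys, such as Myom1 and Tnnt1, are compressed as well.

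**Figure D1:**
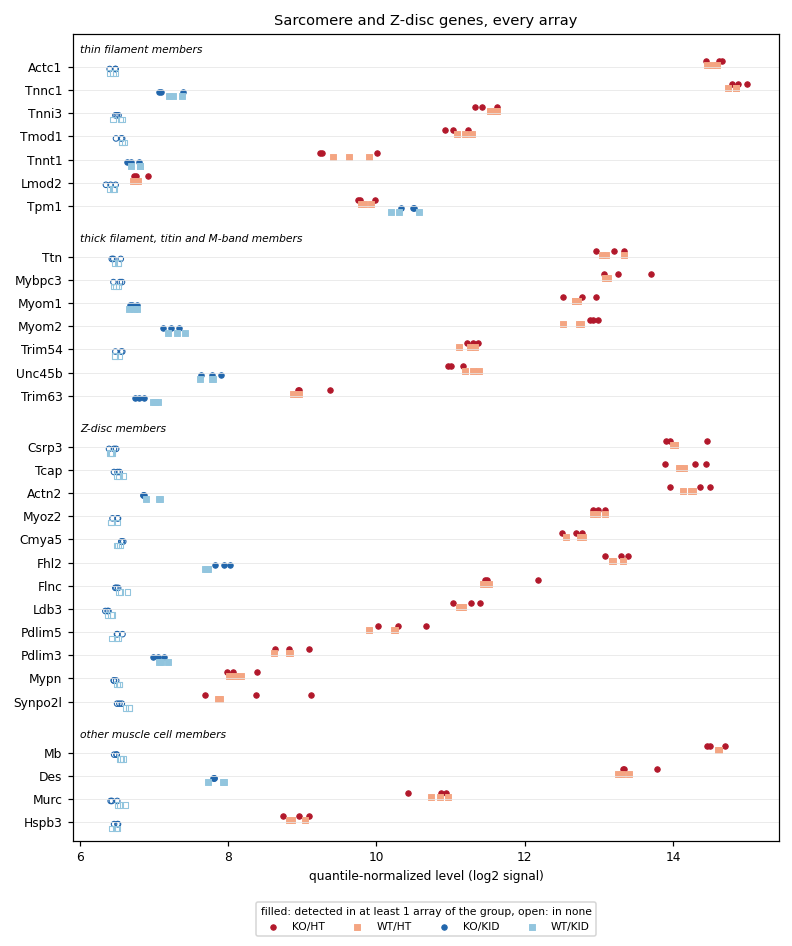
The plot of levels by array gives each of the 30 measured genes a row, with the quantile-normalized log2 signal on the x axis, 1 point per array, circles for knockouts and squares for wildtypes. Each gene is shown by its brightest detected probe, and points are open where no array of that group detected that probe. In every row but that of Tpm1 all 6 hearts lie to the right of all 6 kidneys, and probes differ in brightness, so levels are to be compared within a row only.

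On the thin filament, 6 of 7 measured members were higher in hearts and 1 was lower. Actc1, the cardiac α-actin that builds the filament, stood at 14.44, 14.62 and 14.66 in KO/HT and 14.53, 14.59 and 14.46 in WT/HT, against 6.48, 6.40 and 6.48 in KO/KID and 6.45, 6.41 and 6.48 in WT/KID (log2 levels). The hearts did not overlap the kidneys, where no array detected the gene, and hearts were at least 243-fold in knockouts and at least 232-fold in wildtypes higher. Tnnc1, troponin C, the calcium sensor, had log2 levels of 14.79, 14.88 and 14.99 in KO/HT and 14.85, 14.85 and 14.74 in WT/HT. In kidneys the same probe was detected in all 6 arrays, at 7.40, 7.07 and 7.10 in KO/KID and 7.21, 7.38 and 7.27 in WT/KID. The heart was thus 208-fold in knockouts and 185-fold in wildtypes higher, with a log2 difference of 7.70 ± 0.0872 in knockouts and 7.53 ± 0.0872 in wildtypes (SE, limma, adjusted p = 2.04e-15 and 2.34e-15).

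Tnnt1 codes for the slow skeletal form of troponin T, the subunit that binds tropomyosin. Its log2 levels of 9.24, 10.01 and 9.27 in KO/HT and 9.42, 9.90 and 9.63 in WT/HT spread by more than those of most members, and replicate 2 was the highest array in both genotypes. Kidney arrays read 6.80, 6.64 and 6.69 in KO/KID and 6.81, 6.82 and 6.69 in WT/KID, with 2 of 3 knockout and 3 of 3 wildtype arrays detected. Hearts exceeded kidneys 6.92-fold in knockouts and 7.34-fold in wildtypes (adjusted p = 2.05e-08 and 1.46e-08). Tnni3, the cardiac inhibitory troponin I, and Tmod1, which caps the free end of the filament, were detected in no kidney and were at least 28.1-fold in knockouts and at least 30.2-fold in wildtypes higher for Tnni3 and at least 21.3-fold in knockouts and at least 22.9-fold in wildtypes higher for Tmod1. Lmod2, a leiomodin that lengthens thin filaments, lay just above the detection level in hearts, at log2 levels of 6.73 to 6.92 in KO/HT and 6.71 to 6.78 in WT/HT, and differed by 0.38 in knockouts and 0.31 in wildtypes.

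Tpm1, α-tropomyosin, went the other way. Its log2 levels were 9.76, 9.78 and 9.98 in KO/HT and 9.93, 9.79 and 9.83 in WT/HT, and 10.33, 10.50 and 10.51 in KO/KID and 10.31, 10.19 and 10.57 in WT/KID. Every kidney array exceeded every heart array, with a log2 difference of -0.61 ± 0.10 in knockouts and -0.51 ± 0.10 in wildtypes (adjusted p = 0.000113 and 0.000477). The gene makes many transcripts from shared exons, among them muscle and non-muscle forms, and the files do not say which of them the probes read. A further detected probe of Tpm1 gave differences of -0.57 in knockouts and -0.54 in wildtypes, so both detected probes were lower in hearts.

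Among the thick filament, titin and M-band members, 7 of 7 were higher in hearts. Titin (Ttn), the spring that spans from Z-disc to M-band, reached log2 levels of 13.34, 12.96 and 13.20 in KO/HT and 13.34, 13.05 and 13.10 in WT/HT. No kidney array detected it (6.45, 6.55 and 6.43 in KO/KID and 6.47, 6.52 and 6.51 in WT/KID), and hearts were at least 91.7-fold in knockouts and at least 89.9-fold in wildtypes higher. Mybpc3, myosin-binding protein C, which tunes how myosin heads reach actin, was at least 104-fold in knockouts and at least 86.1-fold in wildtypes higher, and Trim54, a ubiquitin ligase of the muscle RING-finger family, at least 25.2-fold in knockouts and at least 23.7-fold in wildtypes.

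Both myomesins, the proteins that bridge neighboring thick filaments at the M-band, were detected in every kidney array. Myom1 had log2 levels of 12.77, 12.52 and 12.96 in KO/HT and 12.68, 12.72 and 12.68 in WT/HT, against 6.77, 6.69 and 6.70 in KO/KID and 6.67, 6.77 and 6.74 in WT/KID. Myom2 had 12.88, 13 and 12.92 in KO/HT and 12.76, 12.74 and 12.51 in WT/HT, against 7.23, 7.13 and 7.34 in KO/KID and 7.31, 7.42 and 7.19 in WT/KID. Myom1 was 65.3-fold in knockouts and 62.7-fold in wildtypes higher in hearts and Myom2 52-fold in knockouts and 41.1-fold in wildtypes (adjusted p of 2.7e-14 or less for both). Hearts and kidneys were far apart for each, and the knockout and wildtype kidneys overlapped.

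Unc45b, the chaperone that folds the myosin head, and Trim63, the ubiquitin ligase MuRF1 that marks muscle proteins for breakdown, had the smallest differences of their group. For Unc45b the log2 levels were 11.16, 10.97 and 11.01 in KO/HT and 11.30, 11.39 and 11.19 in WT/HT and 7.91, 7.63 and 7.79 in KO/KID and 7.80, 7.78 and 7.63 in WT/KID. The hearts were 9.65-fold in knockouts and 11.8-fold in wildtypes higher (adjusted p = 2.62e-12 and 1.16e-12). For Trim63 they were 9.38, 8.95 and 8.95 in KO/HT and 8.96, 8.87 and 8.93 in WT/HT and 6.80, 6.87 and 6.74 in KO/KID and 7.06, 7.02 and 6.98 in WT/KID. Its excess in hearts was 4.88-fold in knockouts and 3.73-fold in wildtypes (adjusted p = 3.98e-10 and 2.48e-09), and KO/HT replicate 1 was the highest array.

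All 12 measured Z-disc members were higher in hearts. Csrp3, the muscle LIM protein, had log2 levels of 13.91, 13.96 and 14.46 in KO/HT and 14.02, 14.00 and 14.02 in WT/HT, against 6.49, 6.40 and 6.46 in KO/KID and 6.44, 6.41 and 6.42 in WT/KID. It was not detected in kidneys, and the difference amounts to at least 176-fold in knockouts and at least 163-fold in wildtypes. Actn2, the sarcomeric α-actinin that crosslinks actin at the Z-disc, had 13.96, 14.37 and 14.49 in KO/HT and 14.14, 14.24 and 14.27 in WT/HT. Its kidney levels of 6.86, 6.86 and 6.86 in KO/KID and 7.08, 7.07 and 6.89 in WT/KID were detected in all 6 arrays, and hearts were 171-fold in knockouts and 147-fold in wildtypes higher (adjusted p = 1.64e-14 and 2.07e-14). Tcap, the titin cap, was at least 189-fold in knockouts and at least 173-fold in wildtypes higher without detection in kidneys.

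Fhl2, a LIM-domain adaptor that is also made outside muscle, was detected in all kidneys. Its log2 levels were 13.29, 13.39 and 13.08 in KO/HT and 13.19, 13.18 and 13.33 in WT/HT, against 7.83, 8.02 and 7.95 in KO/KID and 7.73, 7.71 and 7.69 in WT/KID, and the hearts were 40-fold in knockouts and 46.1-fold in wildtypes higher (adjusted p = 1.86e-14 and 1.42e-14). Pdlim3, which binds α-actinin through its PDZ domain, was likewise detected throughout. It read 8.83, 8.64 and 9.10 in KO/HT and 8.83, 8.62 and 8.84 in WT/HT, against 6.99, 7.13 and 7.06 in KO/KID and 7.07, 7.2 and 7.09 in WT/KID, a difference of 3.46-fold in knockouts and 3.12-fold in wildtypes (adjusted p = 7.77e-09 and 1.78e-08). With 5.32 log2 in knockouts and 5.53 in wildtypes for Fhl2, and 1.79 log2 in knockouts and 1.64 in wildtypes for Pdlim3, the difference in each genotype was several times its SE of 0.0799 and 0.10.

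Cmya5, myospryn, which links desmin to sarcomeric and membrane proteins, had log2 levels of 12.69, 12.77 and 12.51 in KO/HT and 12.56, 12.79 and 12.74 in WT/HT and was not detected in kidneys (6.59, 6.56 and 6.57 in KO/KID and 6.52, 6.55 and 6.5 in WT/KID). Its heart level was at least 64.3-fold in knockouts and at least 65.1-fold in wildtypes higher. Ldb3, the PDZ and LIM protein also called Cypher, read 11.27, 11.03 and 11.40 in KO/HT and 11.11, 11.16 and 11.15 in WT/HT, against 6.38, 6.39 and 6.35 in KO/KID and 6.42, 6.38 and 6.44 in WT/KID, without detection in kidneys. The excess was at least 24.1-fold in knockouts and at least 22.2-fold in wildtypes. Pdlim5, a relative of Ldb3, read 10.67, 10.29 and 10.03 in KO/HT and 9.90, 10.23 and 10.25 in WT/HT, against 6.58, 6.5 and 6.51 in KO/KID and 6.43, 6.5 and 6.52 in WT/KID for a probe that no kidney detected. It was at least 12.8-fold in knockouts and at least 11-fold in wildtypes higher in hearts. Synpo2l, an actin-bundling protein of the Z-disc, had the smallest measured difference of the group in wildtypes, with 8.37, 7.69 and 9.12 in KO/HT and 7.90, 7.87 and 7.86 in WT/HT and 6.54, 6.51 and 6.57 in KO/KID and 6.66, 6.62 and 6.67 in WT/KID. It was at least 3.35-fold in knockouts and at least 2.31-fold in wildtypes higher, and the KO/HT replicates ranged over more than 1 log2 unit while the wildtype hearts lay close together. The other 3, Myoz2 (a calcineurin-binding calsarcin), Flnc (filamin C) and Mypn (myopalladin), were not detected in kidneys, with lower bounds of 81.7, 33.4 and 2.83 in knockouts and 80.1, 28.0 and 2.68 in wildtypes.

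The remaining 4 measured members work elsewhere in the muscle cell, and all were higher in hearts. Myoglobin (Mb), which stores oxygen, read 14.46, 14.49 and 14.70 in KO/HT and 14.62, 14.62 and 14.61 in WT/HT in log2 units, against 6.5, 6.5 and 6.47 in KO/KID and 6.58, 6.56 and 6.54 in WT/KID without detection. It was at least 240-fold in knockouts and at least 247-fold in wildtypes higher. Desmin (Des), the intermediate filament that ties Z-discs together and that smooth muscle also makes, read 13.33, 13.34 and 13.78 in KO/HT and 13.31, 13.25 and 13.41 in WT/HT. Every kidney array detected it too, at 7.80, 7.81 and 7.81 in KO/KID and 7.73, 7.93 and 7.94 in WT/KID, and the hearts were 51.1-fold in knockouts and 43.9-fold in wildtypes higher (adjusted p = 1.44e-13 and 2.15e-13). Murc, named Cavin4 today, a cavin of muscle caveolae, was at least 17.2-fold in knockouts and at least 18.2-fold in wildtypes higher. Hspb3, a small heat shock protein of muscle, had the smallest difference of the 4, with 9.09, 8.74 and 8.96 in KO/HT and 9.04, 8.86 and 8.83 in WT/HT and 6.52, 6.51 and 6.46 in KO/KID and 6.49, 6.51 and 6.43 in WT/KID, undetected in kidneys, and was at least 4.87-fold in knockouts and at least 4.72-fold in wildtypes higher.

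For 14 members more than 1 probe was detected, and 9 of them had probes whose differences between wildtype organs were over 1 log2 unit apart. Titin was the widest, with 9 detected probes that ran between 0.22 and 6.69 log2 in knockouts and between 0.25 and 6.66 in wildtypes. The 5 detected probes of Ldb3 ran between 0.24 and 4.87 in knockouts and between 0.20 and 4.73 in wildtypes. The brightest titin probe was designed on transcript record NM_028004 and all other detected ones on NM_011652. The smallest difference of each gene came from a probe near the detection level in hearts, with mean log2 levels of 6.67 in KO/HT and 6.72 in WT/HT for titin and of 6.78 in KO/HT and 6.70 in WT/HT for Ldb3. Pdlim5 was another case. Its probe on record NM_019809 differed by 3.80 in knockouts and 3.64 in wildtypes, that on NM_022554 by 1.66 in knockouts and 1.51 in wildtypes, and that on NM_019808 by 0.09 in knockouts and 0.01 in wildtypes, although the last was detected in all 6 kidneys. Unc45b had 3.27 in knockouts and 3.56 in wildtypes with one probe, and 0.52 in knockouts and 0.71 in wildtypes with another. Actc1, Csrp3, Cmya5, Fhl2 and Myom1 also had such probes, each above 4 log2 in both genotypes. Apart from Tpm1, no detected probe of these 14 members was lower in hearts.

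**Figure D2:**
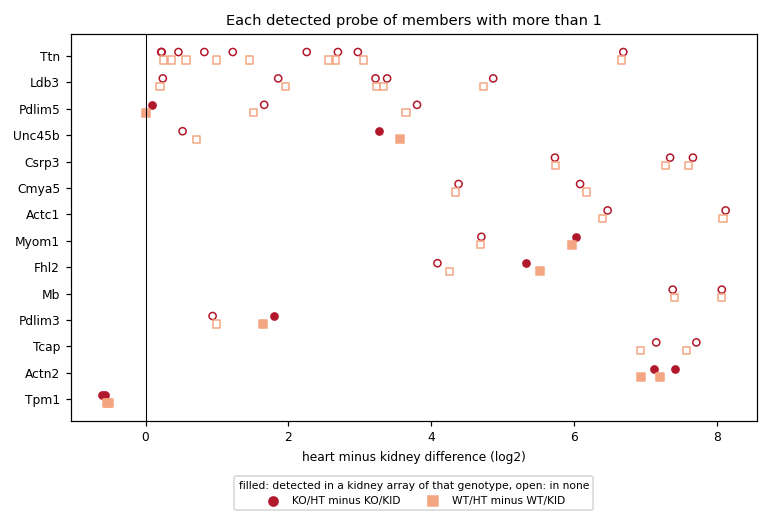
The plot of differences by probe has a row for each of the 14 members with more than 1 detected probe and 1 point per probe and genotype, with the heart minus kidney difference in log2 on the x axis. Open points, detected in no kidney of that genotype, understate the difference. Titin and Ldb3 spread most, and both probes of Tpm1 lie left of 0.

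Between KO/HT and WT/HT, limma called none of the 30 measured members at an adjusted p under 0.05, where 0.0657% of all probes were called, 13 of 19780. By their brightest probes 2 of 30 had an unadjusted p under 0.05, Myom2 and Unc45b, against 8.03% of all probes. The differences ran between -0.25 and 0.51 log2, with a median of 0.06 against -0.0009 for all probes. In 22 of 30 members the knockout mean was higher, where 49.5% of all probes were above 0. By role, the mean was higher in 3 of 7 thin filament members (median -0.01), 6 of 7 thick filament, titin and M-band members (0.06), 11 of 12 Z-disc members (0.09) and 2 of 4 others (-0.02). The 95% intervals of all 30 differences lay within -0.53 and 1.04 log2.

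Among the brightest probes, that of Myom2 had the smallest p. The log2 levels of Myom2 were 12.88, 13 and 12.92 in KO/HT and 12.76, 12.74 and 12.51 in WT/HT. All 3 knockout hearts thus lay above all 3 wildtype hearts, with a difference of 0.26 ± 0.0839 (95% interval 0.08 to 0.44, adjusted p = 0.425). Unc45b lay the other way, with 11.16, 10.97 and 11.01 in KO/HT and 11.30, 11.39 and 11.19 in WT/HT and no overlap, and a difference of -0.25 ± 0.0834 (adjusted p = 0.444). Its dimmer probe gave -0.20 (adjusted p = 0.305). By their brightest probes these were the only members whose 2 groups of hearts did not overlap, where 5.37% of all probes had every knockout heart above and 5.16% every knockout heart below the wildtypes. Among the dimmer probes, that of Unc45b, 1 of titin (-0.09) and 2 of Ldb3 (-0.19 and 0.08 log2) did not overlap either. Those of Ldb3 differed in sign. Dimmer probes of Unc45b, Ldb3 (-0.19) and titin (-0.26) had smaller unadjusted p than Myom2 (limma, 0.00355, 0.00457 and 0.00846 against 0.00916). Their adjusted p were 0.305, 0.343 and 0.421. The brightest probes of Ldb3 and titin gave 0.09 and 0.0056.

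Synpo2l and Mybpc3 came next, and both turned on single arrays. Synpo2l, at 8.37, 7.69 and 9.12 in KO/HT and 7.90, 7.87 and 7.86 in WT/HT, gave 0.51 ± 0.24 (95% interval -0.02 to 1.04, adjusted p = 0.627). Without KO/HT replicate 2 it passed the test, at 0.87 and an adjusted p of 0.039, and without KO/HT replicate 3 it was 0.15. Mybpc3, at 13.25, 13.07 and 13.70 in KO/HT and 13.12, 13.10 and 13.08 in WT/HT, gave 0.24 ± 0.12 (adjusted p = 0.64), and 0.06 without KO/HT replicate 3. The wildtype hearts lay inside the range of the knockout hearts for both genes.

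**Figure D3:**
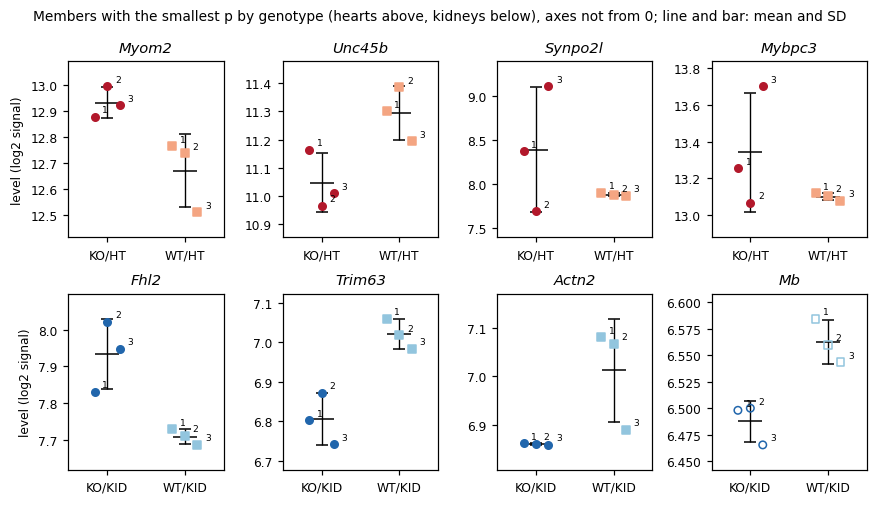
The plot of the members with the smallest p shows log2 levels of each array, numbered by replicate, with mean and SD, for 4 genes in hearts and 4 in kidneys; the y axes do not start at 0. Myom2 and Unc45b do not overlap between genotypes, KO/HT replicate 3 stands highest for Synpo2l and Mybpc3, and open points were not detected.

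KO/HT replicate 3 was the highest of the 6 hearts for 15 of the 30 members and the lowest for 3, against 22.6% and 23.4% of all probes. KO/HT replicate 2 was the lowest for 10 of the 30, against 13.7% of all probes. Flnc, filamin C, had 11.49, 11.46 and 12.18 in KO/HT and 11.47, 11.52 and 11.44 in WT/HT, where replicate 3 was the single array apart, and desmin had 13.33, 13.34 and 13.78 in KO/HT and 13.31, 13.25 and 13.41 in WT/HT. Csrp3 had 13.91, 13.96 and 14.46 in KO/HT and 14.02, 14.00 and 14.02 in WT/HT, again with replicate 3 above a tight set of wildtype hearts, but its next brightest probe had 13.78, 13.70 and 13.86 in KO/HT and 13.72, 13.76 and 13.79 in WT/HT. With that array left out, 16 of 30 members had a higher knockout mean, the median difference was 0.01, the differences of Flnc (-0.0049) and Csrp3 (-0.08) were below 0, and 5 members had an unadjusted p under 0.05 against 8.24% of probes. Without KO/HT replicate 1, the heart with the Y-linked transcript, 19 of 30 were higher with a median of 0.03, 7 had an unadjusted p under 0.05 against 9.8% of probes, and none was called. Without KO/HT replicate 2, 23 of 30 were higher with a median of 0.09, 9 had an unadjusted p under 0.05 against 12.1% of probes, and 1 was called.

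Marker genes of other cells were summed over each array. The 3 detected of 5 atrial genes summed to a signal of 8670 to 27800 in KO/HT and 2880 to 9410 in WT/HT. Nearly all of it was Nppa, the atrial natriuretic peptide (difference 1.38 log2, adjusted p = 0.427), while the atrial light chains Myl4 (-0.11) and Myl7 (-0.09) had lower means in knockouts and Sln and Bmp10 were not detected. The 8 detected of 13 skeletal muscle genes summed to 5020 to 16800 in KO/HT and 3650 to 8050 in WT/HT, with Myh1, Myh4, Tnnc2 and Tnnt3 not detected and no probe for Myh2. Most of that signal was Acta1, the skeletal α-actin, at log2 levels of 13.16, 11.83 and 13.92 in KO/HT and 11.10, 12.13 and 12.68 in WT/HT, and 6 of the 8 genes had a lower mean in knockouts (median -0.04). In both sums KO/HT replicate 3 was the highest heart and KO/HT replicate 2 the lowest knockout heart. The sum of the 9 detected of 10 smooth muscle genes was lower in knockouts without overlap, at 6130 to 8250 in KO/HT and 9680 to 11200 in WT/HT, with 7 genes lower and 2 higher. That of the 5 detected of 6 endothelial genes was also lower without overlap, at 3720 to 4320 in KO/HT and 4590 to 4750 in WT/HT, with 4 lower and 1 higher. The sum of the 7 detected of 8 fibroblast genes was higher without overlap, at 8300 to 10500 in KO/HT and 7860 to 8180 in WT/HT, with 5 higher and 2 lower. The 10 cardiomyocyte genes outside the sarcomere overlapped, at 126000 to 138000 in KO/HT and 134000 to 137000 in WT/HT. No gene of these 6 lists was called between KO/HT and WT/HT (limma). An unadjusted p under 0.05 was reached by 4 of 8 skeletal muscle, 3 of 9 smooth muscle and 3 of 10 cardiomyocyte genes. It was reached by 1 of 3 atrial, 1 of 5 endothelial and 0 of 7 fibroblast genes, against 8.03% of all probes. How often sums of other gene lists fail to overlap was not counted. The part of these markers in the members' differences was not tested.

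**Figure D4:**
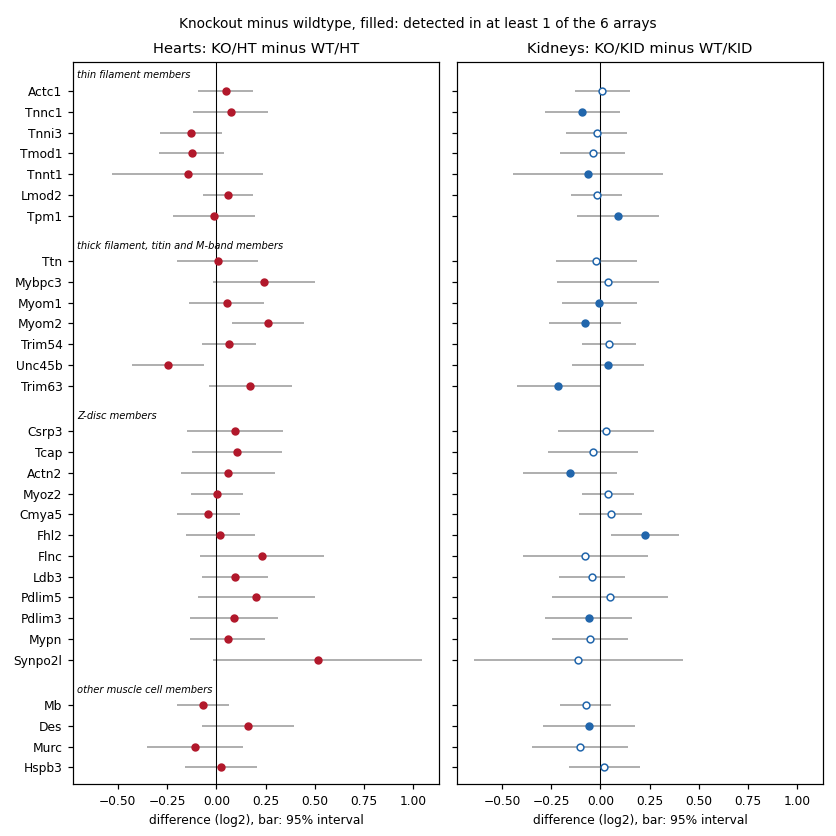
The plot of knockout minus wildtype differences gives each of the 30 members a row, hearts on the left and kidneys on the right, with the log2 difference and its 95% interval from limma on the x axis. In hearts only the intervals of Myom2 and Unc45b leave out 0, and Synpo2l has the widest. Open circles in kidneys are genes whose brightest probe no kidney array detected.

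Between KO/KID and WT/KID none of the 30 members was called either (limma), where 0.546% of all probes were, 108 of 19780. At an unadjusted p under 0.05 there were 2, Fhl2 and Trim63, against 10.1% of all probes. Differences ran between -0.21 and 0.23 log2 with a median of -0.03, and 11 of 30 were above 0, where 50.7% of all probes were. Since the brightest probes of 19 of the 30 were below detection in kidneys, only those of the other 11 carry a level. Of these 11, the knockout mean was higher in 3 and lower in 8, with a median of -0.06. The dimmer Pdlim5 probe that all kidneys detected differed by 0.02 log2.

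Fhl2 had log2 levels of 7.83, 8.02 and 7.95 in KO/KID and 7.73, 7.71 and 7.69 in WT/KID, with every knockout kidney above every wildtype kidney. Its difference was 0.23 ± 0.0799 (95% interval 0.05 to 0.40, adjusted p = 0.318). With arrays centred on their medians in place of quantile normalization it passed the test, at 0.46 and an adjusted p of 0.0301, while the median of all probes moved to 0.12. Trim63 was lower in each knockout kidney, at 6.80, 6.87 and 6.74 in KO/KID and 7.06, 7.02 and 6.98 in WT/KID, with a difference of -0.21 ± 0.10 (adjusted p = 0.481). Actn2, at 6.86, 6.86 and 6.86 in KO/KID and 7.08, 7.07 and 6.89 in WT/KID, was also lower without overlap. Its difference was -0.15 ± 0.11 (adjusted p = 0.739). The dimmer probe of Actn2, detected in 1 kidney of each genotype, differed by -0.03 with overlap. That of Fhl2 was detected in no kidney and differed by -0.015. Mb came next (adjusted p = 0.782) but was detected in no kidney.

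Over all 30 members, all 3 knockout kidneys lay above the wildtype kidneys in 2 (Cmya5 and Fhl2) and below them in 7 (Actn2, Flnc, Mb, Murc, Mypn, Synpo2l and Trim63), where 8.95% of all probes lay above and 8.27% below. Of these 9, only Fhl2, Actn2 and Trim63 were detected in kidneys.

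The genotype difference was set against organ in an interaction, the difference in hearts minus that in kidneys. None of the 30 members passed (limma), where 0.101% of all probes did, 20 of 19780, and 3 members had an unadjusted p under 0.05 against 8.88% of probes. Trim63 had an interaction of 0.39 ± 0.14 log2 (adjusted p = 0.443), with a difference of 0.17 in hearts and -0.21 in kidneys. Its heart difference was 0.03 without KO/HT replicate 1, the heart with the Y-linked transcript. Myom2 had 0.34 ± 0.12 (adjusted p = 0.443), from 0.26 in hearts and -0.08 in kidneys, and Unc45b -0.29 ± 0.12 (adjusted p = 0.519). In kidneys the genotypes overlapped for Myom2 and Unc45b and did not for Trim63.

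A list of 55 other genes of the sarcomere and its anchors, 44 of them measured, was set beside the members. None was called between genotypes in hearts or kidneys (limma). In hearts 9 of 44 had an unadjusted p under 0.05, 7 of them higher in knockouts, against 8.03% of all probes. In kidneys 5 of 44 did, 3 of them higher, against 10.1%. In hearts the smallest p belonged to Tnni2, the fast skeletal troponin I, at 7, 7.11 and 6.90 in KO/HT and 7.28, 7.74 and 7.86 in WT/HT log2. It was lower in each knockout heart, with a difference of -0.62 ± 0.12 (adjusted p = 0.103, and 0.00181 without WT/HT replicate 1, at -0.79). Over the fits that left out a heart array, its difference ran between -0.79 and -0.51, with an adjusted p of up to 0.345 (limma). Tpm2, β-tropomyosin, was also lower in each knockout heart, with a difference of -0.47 ± 0.15 (adjusted p = 0.425). Hspb7, a small heat shock protein of the heart, was higher in each, by 0.37 ± 0.12 (adjusted p = 0.43).

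Myh7, the slow β-myosin heavy chain of the fetal mouse ventricle, had log2 levels of 8.70, 8.01 and 10.03 in KO/HT and 7.94, 7.65 and 7.98 in WT/HT. All 3 knockout hearts lay above the wildtypes, by 1.05 ± 0.35 (adjusted p = 0.437), with replicate 3 farthest, and it passed the test only without KO/HT replicate 2 (1.5, adjusted p = 0.0428). The adult heavy chain Myh6 differed by -0.06 (adjusted p = 0.898).

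In kidneys the 4 smallest p of the list were those of Cryab (0.35), Hspb6 (-0.23), Tpm4 (0.26) and Hspb8 (-0.32 log2), with adjusted p of 0.276 to 0.315. Cryab, Hspb6 and Hspb8 code for small heat shock proteins, and Tpm4 is a tropomyosin of non-muscle cells. Tpm4 passed the test without WT/KID replicate 3 (0.38, adjusted p = 0.0443). Over the fits that left out a kidney array, its difference ran between 0.17 and 0.38, with an adjusted p of up to 0.835 (limma). Between organs, 31 of the 44 were higher and 4 lower in KO/HT against KO/KID, and 31 were higher and 5 lower in WT/HT against WT/KID. Those lower in hearts in both genotypes were Csrp2, Actn4, Unc45a and Csrp1, the forms of a LIM protein, α-actinin and myosin chaperone that cells outside striated muscle use.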

How the data were processed

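RNA of 12 whole organs was read on Illumina bead arrays, 3 for each of KO/HT, WT/HT, KO/KID and WT/KID. The authors deposited, for each of 45281 probes, a linear signal intensity that is not normalized between arrays (the smallest is 71.7) and a detection p-value (how it was computed: not given in the sources used here). They also deposited normalized intensity values made, per the labels and methods, with lumi and quantile normalization.

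The signals were quantile normalized over the 12 arrays and taken to log2. This step gives the brightest probes a shared set of values, so that small differences there are differences of rank. Only the 19780 probes that reached detection (p-value under 0.01) somewhere among the arrays were kept, and gene names came from the platform annotation, updated through RefSeq genes of GRCm38.p6. Among them 17073 carried a single symbol, 9 several and 2698 none. For a gene with several detected probes, the one brightest on average was used. One model in limma 3.58.1 (R 4.3.3) estimated the 4 group means (residual degrees of freedom 8, prior 3.91). Tests were two-sided, with adjustment by Benjamini and Hochberg's method across the 19780 probes. SEs and 95% intervals are those of the model. It shares 1 spread per probe over all 12 arrays, so a gene has the same genotype SE in hearts and kidneys. Where kidneys read only background, its small spread enters the SEs, intervals and p-values of the hearts. Synpo2l had an SD of 0.71 in KO/HT and 0.03 in KO/KID, with an SE of 0.243 in both organs. A bead signal has no known count behind it, so 3 arrays per group set the precision. The fit was tested on simulated data.

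The members and lists were chosen with earlier results of these data known. Array values are given for members called between genotypes or in the interaction, the 4 with the smallest p in each genotype comparison, the members with the largest and smallest wildtype heart minus kidney difference of each role, those detected in 3 arrays of a kidney group, and those whose probes were over 1 log2 apart. Flnc was named in addition after its values were seen. Same-numbered arrays did not all deviate together (r between -0.203 and 0.207), so replicate numbers were not used as pairs. Alternatives were a background correction (neqc, offset 16), centring on array medians, the authors' normalized values, detection in 3 arrays and no filter. Others were only the groups compared, a replicate block, a random block of same-numbered arrays of a genotype, and trend and robust moderation. The last were the mean of all detected probes and leaving out each array. The random block does not stand for the mouse, since most hearts and kidneys of the same number differ in their sex transcript. Sequences are RefSeq's for GRCm38.p6. The targeted gene is not reported here.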

Additional observations from a re-analysis of the deposited data

How the results depend on the processing

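Across all alternatives the members called between organs stayed at 30 in each genotype, 29 higher and 1 lower in hearts. The interaction called none under any. The count called in hearts was 0 to 1 over the fits that left out an array, with 1 only without KO/HT replicate 2 (Synpo2l, adjusted p = 0.039). In kidneys it was 0, except with arrays centred on their medians, where it was 1 (Fhl2, 0.46 log2, adjusted p = 0.0301). There Cryab (0.57, adjusted p = 0.00735) and Tpm4 (0.48, adjusted p = 0.0149) passed in kidneys as well, while the median of all kidney probes moved to 0.12. In hearts, the genotype differences of Flnc and Csrp3 (0.23 and 0.09) were -0.0049 and -0.08 without KO/HT replicate 3. The cause of these changes was not tested.

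The median heart minus kidney difference of the members (5.08 in knockouts and 4.99 in wildtypes) was 6.75 in knockouts and 6.74 in wildtypes with the neqc background correction, 4.88 in knockouts and 4.70 in wildtypes with median centring, 4.16 in knockouts and 4.09 in wildtypes in the authors' normalized values, 4.87 in knockouts and 4.74 in wildtypes without a filter (33 members) and 4.73 in knockouts and 4.82 in wildtypes with the mean of all detected probes. The kidney genotype median of -0.03 was -0.0507 with neqc, turned to 0.0071 with median centring and was -0.014 in the authors' values. With the replicate block, which the numbers do not justify as pairs, 0 members were called in hearts, 0 in kidneys and 0 in the interaction, and 30 in each organ comparison, with a heart genotype median of 0.06. It changed no call. Background signal limits the differences of members that kidneys do not show above detection or show only just above it. The genotype comparisons are limited by 3 arrays per group.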
